A study of Danio rerio with 18 samples.

Results

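Zebrafish embryos without p53 were compared 3 h after ionizing radiation and without treatment, which asks which transcripts change after DNA damage when p53 is missing. The comparison used the 4 libraries that the labels give for it, of 18 in the series: 2 from p53 -/- embryos at 3 h and 2 from untreated p53 -/- embryos. Irradiated embryos received 30 Gy of X-rays at 5 Gy per min, 30 h after fertilization. The series also holds p53 -/- embryos at 1 h (2 libraries). Wild type p53 +/+ embryos at 3 h and untreated, and embryos lacking puma, noxa and p21 (puma -/- noxa -/- p21 -/-, called the triple mutant here, which keeps p53) at 3 h and untreated, have 2 libraries each and share none with the p53 mutant. The triple mutant was also sampled at 1 h and 2 h after irradiation (2 libraries each). RNA came from whole embryos. The mutant alleles, the number of embryos in a library and the exact time at which untreated embryos were collected are not given in the sources used here, so 3 h and untreated embryos may differ in age. The labels do not say whether libraries of a group came from separate clutches or pools. The p-values measure only the spread between libraries of the same group, pooled over all 9 groups of the series, and this spread may be technical. Pooling takes the spread to be equal in all groups, which the replicates did not show. Replicate correlations were 0.9632 (untreated p53 mutant), 0.9075 (p53 mutant, 1 h) and 0.9441 (untreated wild type). In the other groups they ran from 0.9872 to 0.9941, with 0.9939 for the p53 mutant at 3 h. The pooled spread may understate that of untreated p53 mutants, so the p-values may be too small. Counting the cells that gave the RNA was not part of the assay, so fewer cells of a type and less RNA per cell cannot be told apart.

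p53 is a transcription factor that is stabilized after DNA damage and switches on genes for cell cycle arrest and cell death, together with mdm2, whose product degrades it. Damaged cells also hold their cycle through the checkpoint kinases ATM and ATR, which restrain the mitotic kinase CDK1 and do not need p53. Genes of the oxygen-sensing pathway are driven by hypoxia-inducible factors and genes of the heat shock response by heat shock factors. The roles given for single genes below are those known for the vertebrate proteins of that name, mostly from work in mammals.

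Levels are in TPM, a length-corrected transcript abundance with the same sum in every library. A change is the difference of group means of log2(TPM + 1), which understates the change of low genes, and a gene counts as called when its adjusted p in limma was under 0.05 (Benjamini-Hochberg over 18575 genes). The libraries differed in more than treatment. The 5.8S ribosomal RNA, which poly(A) selection should largely remove, was listed at 0 in both p53 mutant 3 h libraries, against 631 TPM in untreated replicate 1 and 13.6 TPM in replicate 2. It was also at 0 in the wild type 3 h libraries and above 0 in the untreated wild type, and at 0 in every triple mutant library. Transcripts of the mitochondrial genome made up 4.50% and 4.75% of TPM in the p53 mutant 3 h libraries, against 1.67% and 5.21% in the untreated ones. The median gene differed by 0.36 (log2) between each 3 h library and untreated replicate 1, and by -0.0026 and -0.0066 between the 3 h libraries and untreated replicate 2. At 1 h, replicate 1 stood apart from replicate 2, with 14057 genes at 1 TPM or more against 17396. Untreated p53 mutant replicate 1 correlated more closely with untreated wild type replicate 1 (0.9823) and with 1 h replicate 1 (0.9771) than with its own replicate. These 3 were the libraries over 100 TPM of 5.8S RNA. Untreated p53 mutant replicate 2 was closest to 1 h replicate 2 (0.9912). The part of these library differences in the results below was not tested.

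In the p53 mutant at 3 h, limma called 85 of the 18575 genes (0.458%), 43 of them higher (0.231%) and 42 lower (0.226%) than in untreated embryos. The 5 largest rises with a symbol were those of the hypoxia gene EGLN3, the chaperone gene hsp70l, the hypoxia gene ANKRD37, the chaperone gene HSPA2 and the splicing-linked gene rsrp1, and the 15 largest falls with a symbol included the helicase gene PIF1 and the mitotic genes cdca3, CDC20, kif11, KPNA2 and ccnb3. For all 85 genes the 3 h libraries lay outside the range of the untreated libraries, and for 66 the change was 1 or more on the log2 scale. Absence of overlap is common with 2 libraries a group: 36.4% of all tested genes were higher without overlap and 9.96% lower. An unadjusted p under 0.05 in limma was also common, in 1866 of the 18575 genes, 1370 of them higher and 496 lower. These totals are the background for the unadjusted counts of the lists below. The median change of all genes was 0.17, and it was -0.005 without untreated replicate 1 and 0.35 without untreated replicate 2. The medians of the lists below also differed between these settings. Median-of-ratios scaling, which brought that median to 0.01, gave 162 calls, 61 of them higher, and these shared 55 genes with the 85. A fit to the 6 p53 mutant libraries alone, with 3 residual degrees of freedom, called 1 gene lower and none higher. The gene was ENSDARG00000094712, for which library content and treatment cannot be told apart, as given below. In this limma fit 587 genes had an unadjusted p under 0.05. Without 3 h replicate 1 the count was 30, without 3 h replicate 2 it was 34, and without untreated replicate 1 it was 38. Libraries outside the comparison, which share the estimate of the spread, moved it too: it was 225 and 232 when 1 h replicate 1 or 2 was left out, 150 for either untreated wild type library, and 51 or 52 for a triple mutant library that was untreated or taken at 1 or 2 h. Of the 84 called genes reported here, 13 higher and 12 lower ones were called under every setting that tested them, apart from the fit to the p53 mutant alone. Among them si:ch211-229n1.7 and fndc7rs4 were not tested under the filter of 5 TPM. The 12 lower ones include ENSDARG00000094712 and si:dkeyp-21h4.3, for which library content and treatment cannot be told apart, as given below. The filter on low values, 1 TPM or more in 2 or more libraries, admitted 18 of the 18575 genes through the p53 mutant 3 h libraries alone, and 4 of these were called, ccl20a.3, si:ch211-149k12.3, si:ch211-229n1.7 and si:dkey-17m8.2. These 4 had to be higher at 3 h to be tested at all.

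**Figure D1:**
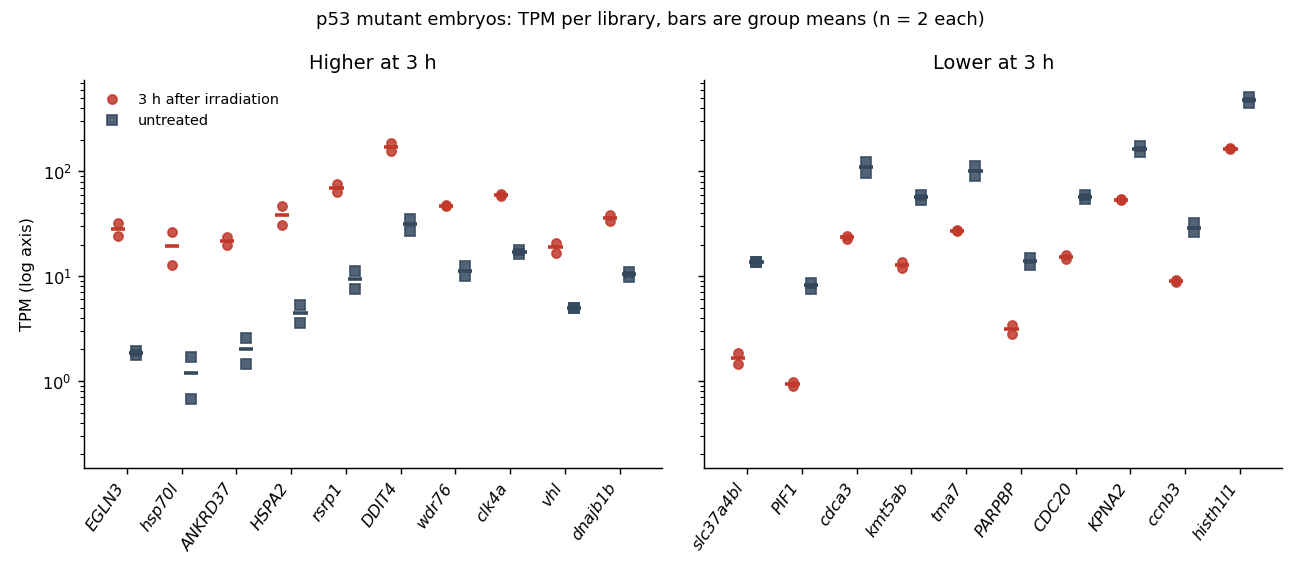
TPM of 10 genes that rose and 10 that fell in p53 mutant embryos, on a logarithmic axis, with circles for the libraries at 3 h, squares for the untreated libraries and short bars for group means (n = 2 each). The groups do not overlap for any of these genes: EGLN3 lies at 32.3 and 24.1 TPM at 3 h and at 1.77 and 1.93 TPM in untreated embryos.

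The p53 target genes were not induced as a group in the p53 mutant. Of 40 tested members of a list of p53 targets, 1 was called higher at 3 h (0.231% of all genes were) and none lower. In limma 2 had an unadjusted p under 0.05, both higher, as had 1370 of all 18575 genes for a rise. In the wild type 20 were called higher (3.11% of all genes) and in triple mutants 16 (0.598%). The median change of the list was 0.16 in the p53 mutant, close to the 0.17 of all genes (0.0025 without untreated replicate 1 and 0.33 without replicate 2), against 1.04 in wild type and 0.85 in triple mutant embryos. The difference between responses was called for 12 of the 40 against the wild type (0.345% of all genes were called lower in this difference) and for 11 against the triple mutant (0.237%), all lower in the p53 mutant. The list was chosen with earlier results of these data known.

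The cell cycle inhibitor gene cdkn1a (ENSDARG00000076554, which encodes p21) was at 2.14 and 2.44 TPM at 3 h and at 3.14 and 8.78 TPM in untreated p53 mutants. Both 3 h values were below the untreated ones, and the change of -0.95 was not called (SE 0.488, limma adjusted p = 0.565). In the wild type it was at 361 and 306 TPM at 3 h, against 4.44 and 6.96 TPM untreated, and the p53 mutant response minus the wild type response was -6.62 (SE 0.69, adjusted p = 0.000673 in limma). The death gene bbc3 (ENSDARG00000069282, which encodes puma) was at 0.77 and 1.28 TPM at 3 h against 0.40 and 0.67 TPM untreated in the p53 mutant. Its change of 0.39 was not called (adjusted p = 0.551 in limma) and differed from the wild type response by -5.19 (SE 0.279, adjusted p = 1.8e-06). For the p53 inhibitor mdm2 (ENSDARG00000033443) the p53 mutant had 49.2 and 57.2 TPM at 3 h against 25.9 and 52.2 TPM untreated, a change of 0.51 (adjusted p = 0.786 in limma). The untreated replicates of mdm2 lay farther apart than the group means.

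CCNG1 (ENSDARG00000076667, cyclin G1) stood at 258 and 265 TPM at 3 h and at 258 and 253 TPM untreated. Its change of 0.03 differed from the wild type response by -1.93 (SE 0.272, adjusted p = 0.00648 in limma). The other genes of the series title and genotypes, pmaip1 (noxa), foxo3b and FBXW7, had changes of 0.18, 0.16 and -0.02 in the p53 mutant, and none was called. The signs of such small changes moved with the scaling and with single libraries: CCNG1 was at -0.16 and foxo3b at -0.0065 under median-of-ratios scaling, pmaip1 was at -0.064 and foxo3b at -0.19 without untreated replicate 1, and FBXW7 was at 0.23 without untreated replicate 2.

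The one member of the p53 target list that was called was DDB2 (ENSDARG00000041140), a damage sensor of nucleotide excision repair. It was at 33.5 and 34.0 TPM at 3 h, against 10.6 and 15.5 TPM in untreated p53 mutants, and rose by 1.33 (SE 0.205, adjusted p = 0.0143 in limma). The groups were well apart, and the changes of 1.08 in the wild type (called) and 0.72 in the triple mutant (not called) had the same sign. It lost its call without 3 h replicate 1, 3 h replicate 2 or untreated replicate 1 (adjusted p up to 0.169 in limma).

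Some mitotic genes fell without p53. Of 78 tested members of a mitosis list, 9 were called lower (0.226% of all genes were) and none higher. In limma 27 members had an unadjusted p under 0.05, all lower, against 496 of all 18575 genes for a fall. The list's median change was -0.42 against 0.17 for all genes. Without overlap, 49 members were lower (9.96% of all genes were) and 17 were higher (36.4% of all genes were). The number of calls was 4 when either 3 h library was left out and 21 under median-of-ratios scaling, where the median was -0.60. The 9 genes were CDC20, cdca3, KPNA2, ccnb3, kif11, NUSAP1, CCNB1, aurka and PRC1 (ENSDARG00000005993, 1 of several genes with that symbol).

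CDC20 (ENSDARG00000100741), which activates the ubiquitin ligase that starts anaphase, was at 14.5 and 16.0 TPM at 3 h, against 54.6 and 60.0 TPM in untreated p53 mutants. It fell by 1.84 (SE 0.181, adjusted p = 0.000499 in limma). The trigger of mitotic entry cdca3 (ENSDARG00000070656) was at 24.3 and 22.5 TPM at 3 h against 124 and 96.8 TPM untreated, and fell by 2.18 (SE 0.152, adjusted p = 3.45e-05 in limma). In both genes the replicates lay close together relative to the gap between groups. The nuclear import receptor gene KPNA2 (ENSDARG00000038066) fell by 1.59 to 53.1 and 54.1 TPM at 3 h, against 174 and 153 TPM untreated. The cyclin gene ccnb3 (ENSDARG00000034855) fell by 1.57 to 9.18 and 8.89 TPM at 3 h, against 31.9 and 26.2 TPM untreated. These 4 genes kept their call without any single library.

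The other mitotic calls rested on more of the libraries. The spindle motor gene kif11 was at 23.7 and 22.8 TPM at 3 h against 77.0 and 76.6 TPM untreated, a fall of 1.68 that was lost without 3 h replicate 1, 3 h replicate 2 or untreated replicate 1 (adjusted p up to 0.0668 in limma). CCNB1, the main cyclin partner of CDK1, was at 47.0 and 47.5 TPM at 3 h against 106 and 106 TPM untreated, a fall of 1.15 that was lost without either 3 h library (adjusted p up to 0.0623). The centrosomal kinase gene aurka fell by 0.94, and its call was lost without 3 h replicate 1, 3 h replicate 2 or untreated replicate 1 (adjusted p up to 0.135) and under median-of-ratios scaling. PRC1, which bundles midzone microtubules, fell by 1.13 and lost its call without any 1 of the 4 libraries compared (adjusted p up to 0.207). NUSAP1, a spindle microtubule binder, fell to 44.7 and 44.3 TPM at 3 h, against 112 and 129 TPM untreated, and lost its call without any of 14 of the 18 libraries (adjusted p up to 0.32 in limma). CDK1 itself and plk1 were not among the calls.

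Members of the mitosis list were also called lower where p53 is present. In wild type embryos 12 of the 78 were (0.668% of all genes), with a list median of -0.42 against 0.23 for all genes, and in the triple mutant 10 were (0.151%), with a list median of -0.52 against 0.07. For no member was the difference in response between the p53 mutant and either of these genotypes called. The p53 mutant response of aurka minus that of the triple mutant was 0.62 (SE 0.194, adjusted p = 0.504 in limma), a smaller fall. For CCNB1 this difference was -0.53 (SE 0.209, adjusted p = 0.766 in limma), a larger fall. CDC20 was at 11.5 and 13.2 TPM in the wild type at 3 h against 40.2 and 58.6 TPM untreated, and the p53 mutant response differed from that of the wild type by 0.05 (SE 0.256) and from that of the triple mutant by 0.25 (SE 0.256). cdca3 gave differences of 0.01 (SE 0.215) and -0.04 (SE 0.215). Such standard errors do not exclude differences larger than 1 SE in either direction.

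PIF1 (ENSDARG00000020289), a DNA helicase, was at 0.89 and 0.97 TPM at 3 h against 8.70 and 7.62 TPM in untreated p53 mutants, and fell by 2.24 (SE 0.162, adjusted p = 3.48e-05 in limma). The linker histone gene histh1l1 (ENSDARG00000035519) was at 162 and 166 TPM at 3 h against 508 and 451 TPM untreated, a fall of 1.54 (SE 0.136, adjusted p = 0.000231). Both genes also fell in each of the other genotypes. PARPBP (ENSDARG00000029944), an inhibitor of recombination repair, was at 2.80 and 3.42 TPM at 3 h against 15.0 and 12.7 TPM untreated, and kmt5ab (ENSDARG00000104114), a histone H4 methyltransferase gene, was at 13.7 and 11.9 TPM at 3 h against 53.4 and 60.1 TPM untreated. PARPBP fell by 1.85 and kmt5ab by 2.07, and both were called lower in all 3 genotypes.

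Among lists of DNA synthesis and repair, 3 genes were called. Of 68 tested members of a DNA replication list, 1 was called lower (0.226% of all genes were) and none higher, and 12 members had an unadjusted p under 0.05 for a rise and 6 for a fall. The median change was 0.24, against 0.17 for all genes, and 0.05 under median-of-ratios scaling. The called gene CDCA7, a chromatin factor of S phase, was at 54.9 and 52.4 TPM at 3 h against 132 and 152 TPM untreated. It fell by 1.38 (adjusted p = 0.0153 in limma), and the call was lost without any 1 of the 4 libraries compared (adjusted p up to 0.158). RRM2 (ENSDARG00000078069), a subunit of ribonucleotide reductase, was at 1019 and 1032 TPM at 3 h against 691 and 661 TPM untreated, and PRIM1, a primase subunit, was at 58.9 and 60.3 TPM at 3 h against 32.4 and 40.1 TPM untreated. Neither was called (changes 0.60 and 0.71, adjusted p = 0.115 and 0.163 in limma). Of 47 tested genes of excision, mismatch and bypass repair, 2 were called higher (0.231% of all genes were), DDB2 and the light-responsive repair gene cry5, and none lower. In all, 33 members were higher without overlap, as were 36.4% of all genes, 13 had an unadjusted p under 0.05, all higher, and the median change was 0.34. No member of this list was called without 3 h replicate 1, 3 h replicate 2 or untreated replicate 1. Of 47 tested genes of double-strand break repair and checkpoint, none was called in limma, with 13 at an unadjusted p under 0.05 for a rise and 2 for a fall. Their median change was 0.39, 0.26 without untreated replicate 1 and 0.58 without replicate 2. The recombination motor gene RAD54L was at 11.3 and 12.3 TPM at 3 h against 7.05 and 7.90 TPM untreated (change 0.59, adjusted p = 0.163 in limma).

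At 1 h after irradiation some of these genes already had lower values than in untreated p53 mutants. limma called 1 gene between 1 h and untreated p53 mutants (0.00538%), PIF1, which was at 2.90 and 2.29 TPM at 1 h (adjusted p = 0.0499), and 202 genes had an unadjusted p under 0.05. Between 3 h and 1 h it called 105 genes (0.565%), 67 higher and 38 lower, a count that was 10108 when 1 h replicate 2 was left out, 63 for 1 h replicate 1, 19 for 3 h replicate 1, 20 for 3 h replicate 2, 49 to 63 for a triple mutant or wild type 3 h library, 185 for either untreated wild type library and 0 in the fit to the p53 mutant alone (784 with an unadjusted p under 0.05 in limma). The 3 h comparisons with 1 h and with untreated embryos share the 3 h libraries, and the values are set side by side only. aurka had 50.2 and 45.2 TPM in untreated embryos, 27.7 and 26.8 TPM at 1 h and 24.9 and 23.8 TPM at 3 h. CCNB1 had 106 and 106 TPM untreated, 61.8 and 65.0 TPM at 1 h and 47.0 and 47.5 TPM at 3 h. For both, the change between untreated and 1 h was not called. The change between 1 h and 3 h was not called either (-0.16 with adjusted p = 0.512 for aurka and -0.41 with adjusted p = 0.21 for CCNB1 in limma).

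Other mitotic genes lay near the untreated level at 1 h. KPNA2 was at 174 and 153 TPM untreated, 147 and 155 TPM at 1 h and 53.1 and 54.1 TPM at 3 h. Between 1 h and 3 h it fell by 1.48 (adjusted p = 0.00194 in limma), and cdca3 fell by 1.98 (adjusted p = 0.000102). CDC20, at 33.0 and 41.4 TPM at 1 h, lay between its untreated and 3 h levels. At 1 h some genes with large rises at 3 h lay near their untreated levels: EGLN3 was at 2.74 and 2.25 TPM, rsrp1 at 5.19 and 11.5 TPM and hsp70l at 0.34 and 1.68 TPM. The hypoxia gene vhl was at 5.02 and 4.92 TPM untreated, 8.44 and 8.32 TPM at 1 h and 20.9 and 16.7 TPM at 3 h.

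**Figure D2:**
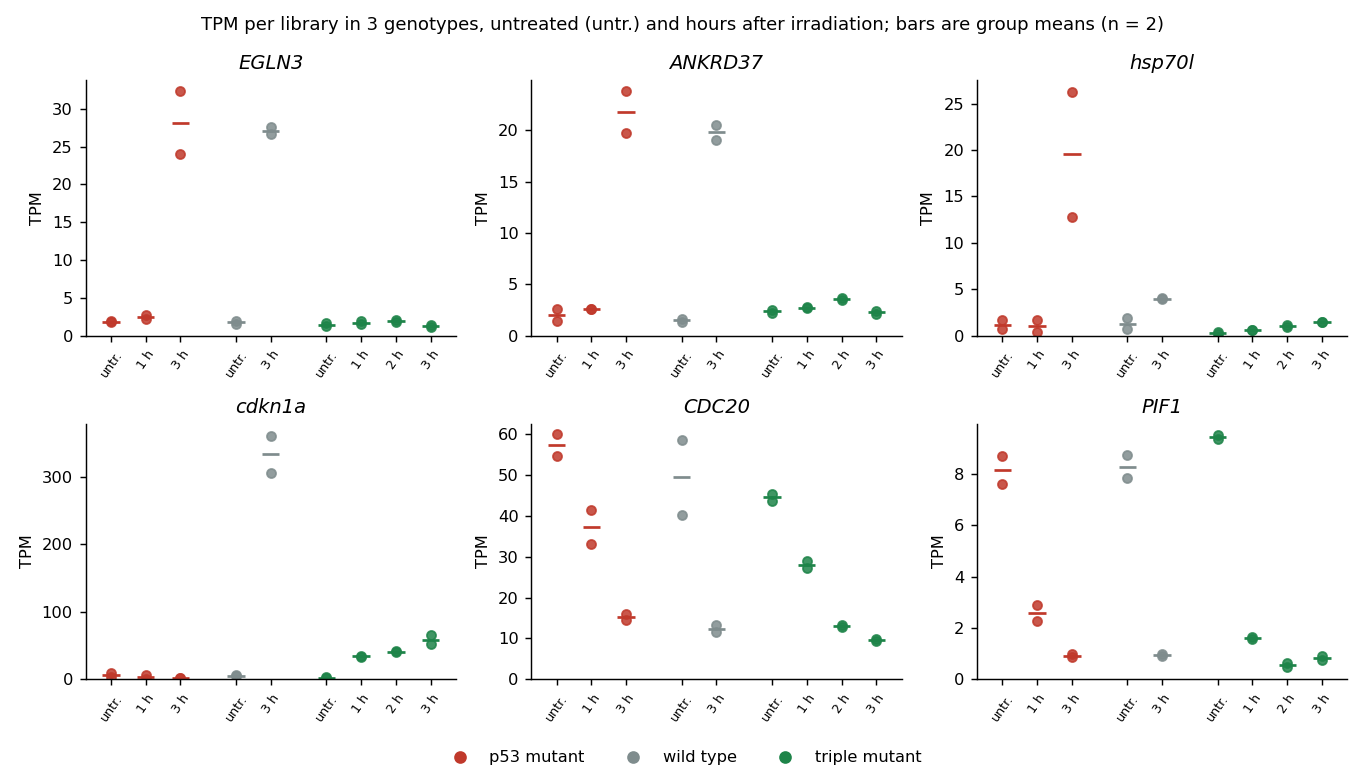
TPM of 6 genes in each library of the p53 mutant, the wild type and the triple mutant, untreated and at 1, 2 or 3 h after irradiation where sampled, with short bars for group means (n = 2) and a linear axis for each gene. EGLN3 and ANKRD37 are high at 3 h in the p53 mutant and the wild type and below 4 TPM in every triple mutant library, while CDC20 and PIF1 are low at 3 h in all 3 genotypes and cdkn1a stays below 10 TPM in the p53 mutant.

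Some oxygen-sensing genes rose. Of 46 tested members of a hypoxia response list, 5 were called higher (0.231% of all genes were) and none lower, and the list's median change was 0.33 against 0.17 for all genes. That median was 0.17 without untreated replicate 1, 0.55 without untreated replicate 2 and 0.16 under median-of-ratios scaling. The called genes were EGLN3, ANKRD37, DDIT4, vhl and fam162a. EGLN3 and vhl encode proteins that shut the pathway down: a prolyl hydroxylase that marks hypoxia-inducible factor and the recognition subunit of the ligase that destroys it.

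EGLN3 (ENSDARG00000032553) was at 32.3 and 24.1 TPM at 3 h and at 1.77 and 1.93 TPM in untreated p53 mutants, a rise of 3.34 (SE 0.199, adjusted p = 1.12e-05 in limma). ANKRD37 (ENSDARG00000056376), an ankyrin repeat gene known as a hypoxia target, was at 23.8 and 19.7 TPM at 3 h against 1.45 and 2.58 TPM untreated, and rose by 2.94 (SE 0.198, adjusted p = 3.18e-05). vhl (ENSDARG00000070617) rose by 1.72 (SE 0.19, adjusted p = 0.000965). In these genes the 3 h libraries lay far above both untreated libraries. DDIT4 (ENSDARG00000037618), an inhibitor of the growth kinase mTOR, was at 185 and 156 TPM at 3 h against 26.9 and 35.4 TPM untreated. It rose by 2.42 (SE 0.173, adjusted p = 3.48e-05 in limma). fam162a, a mitochondrial protein gene induced by hypoxia, was at 50.7 and 49.1 TPM at 3 h against 31.4 and 24.6 TPM untreated. This rise of 0.82 lost its call without any of 11 of the 18 libraries, and under median-of-ratios scaling and quantile normalization.

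The responses of EGLN3, ANKRD37 and vhl in the p53 mutant were near those of the wild type and differed from those of the triple mutant. EGLN3 was at 27.5 and 26.7 TPM in the wild type at 3 h against 1.50 and 1.98 TPM untreated, and at 1.44 and 1.18 TPM in the triple mutant at 3 h against 1.68 and 1.21 TPM untreated. The p53 mutant response minus that of the triple mutant was 3.42 for EGLN3 (SE 0.281, adjusted p = 0.000106 in limma), 2.98 for ANKRD37 (SE 0.28, adjusted p = 0.000314) and 1.52 for vhl (SE 0.268, adjusted p = 0.0402). Against the wild type the differences were -0.02 (SE 0.281), -0.14 (SE 0.28) and -0.01 (SE 0.268), none called. The 5.8S RNA differed in the same way, being above 0 only in untreated libraries of the p53 mutant and the wild type and in p53 mutant libraries at 1 h, and its part in this contrast was not tested. In p53 mutant libraries at 1 h, which held 5.8S RNA, EGLN3 was at 2.74 and 2.25 TPM. In triple mutant libraries at 3 h, which held none, EGLN3 was at 1.44 and 1.18 TPM. DDIT4 followed another order: it was at 407 and 344 TPM in the wild type at 3 h against 19.4 and 25.5 TPM untreated, so that the p53 mutant response differed from that of the wild type by -1.59 (SE 0.245, adjusted p = 0.0129 in limma) and differed from that of the triple mutant by 0.54 (SE 0.245, adjusted p = 0.937). Glycolysis genes, many of them hypoxia targets in mammals, had no call among 28 tested (0 of them higher and 5 lower at an unadjusted p under 0.05 in limma) and a median of -0.10.

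Heat shock genes rose in part. Of 38 tested members of a heat shock list, 3 were called higher (0.231% of all genes were) and none lower, 15 had an unadjusted p under 0.05, all higher, and the median change was 0.41 against 0.17 for all genes. The median was 0.13 without untreated replicate 1 and 0.79 without untreated replicate 2. Under median-of-ratios scaling 8 members were called higher. In the wild type the list's median was 0.46 against 0.23 for all genes, and 2 members were called higher (3.11% of all genes were). In the triple mutant the median was 0.38 against 0.07, and no member was called. There 33 members were higher without overlap, as were 7306 of the 18575 genes. For no member was the difference in response between the p53 mutant and either genotype called. The called genes were hsp70l and hsp70.1, copies of the inducible 70-kDa chaperone, and dnajb1b, its partner. Copies of this chaperone have closely similar sequences, and how reads were shared among them is not stated, so the level of each copy is uncertain.

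The chaperone gene hsp70l (ENSDARG00000055723) was at 12.8 and 26.3 TPM at 3 h against 0.68 and 1.69 TPM in untreated p53 mutants, and rose by 3.19 (SE 0.384, adjusted p = 0.00202 in limma). The 3 h replicates lay far apart but both were above the untreated libraries. HSPA2 (ENSDARG00000092362), a further member of the family that was not in the list, was at 30.6 and 46.8 TPM at 3 h against 3.55 and 5.30 TPM untreated, a rise of 2.86 (SE 0.299, adjusted p = 0.000759). The co-chaperone gene dnajb1b (ENSDARG00000041394) was at 33.8 and 38.5 TPM at 3 h against 9.86 and 11.0 TPM untreated, a rise of 1.70 (SE 0.18, adjusted p = 0.000759 in limma). hsp70.1 was lower, at 3.42 and 8.47 TPM at 3 h against 0.18 and 0.27 TPM untreated, and its call was lost with weights per library. In the wild type hsp70l was at 4.03 and 3.90 TPM at 3 h against 0.70 and 1.84 TPM untreated, while no triple mutant library was above 1.48 TPM. The p53 mutant response exceeded these by 2.02 (SE 0.543, adjusted p = 0.341) and 2.29 (SE 0.543, adjusted p = 0.203 in limma), which did not pass the threshold.

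rsrp1 (ENSDARG00000030440), an arginine- and serine-rich protein gene linked to splicing, was at 63.0 and 76.5 TPM at 3 h against 7.61 and 11.3 TPM in untreated p53 mutants, a rise of 2.78 (SE 0.297, adjusted p = 0.000759 in limma). wdr76 (ENSDARG00000053554), a WD-repeat protein gene linked to the damage response, was at 47.6 and 46.8 TPM at 3 h against 10.1 and 12.6 TPM untreated, a rise of 1.98 (SE 0.242, adjusted p = 0.00215). Both gaps were several times the spread between replicates. CRTAC1 (ENSDARG00000059826, 1 of several genes with that symbol), a secreted matrix protein gene, was at 12.2 TPM in both 3 h libraries against 2.62 and 1.80 TPM untreated, and rose by 2.05. clk4a (ENSDARG00000089372), a kinase gene of splicing factors, was at 58.6 and 60.3 TPM at 3 h against 17.7 and 16.1 TPM untreated, and rose by 1.76 (SE 0.157, adjusted p = 0.000231 in limma). The clk4a call was lost under median-of-ratios scaling, and its response exceeded that of the triple mutant by 1.51 (SE 0.222, adjusted p = 0.0107). wdr76, CRTAC1, rsrp1 and clk4a also rose in the wild type, and none of them was called in the triple mutant.

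Other rises rested on more of the libraries. ID1 (ENSDARG00000040764), an inhibitor of differentiation factors, was at 1043 and 1031 TPM at 3 h against 596 and 547 TPM in untreated p53 mutants, a rise of 0.86 (adjusted p = 0.00614 in limma) that was lost without either 3 h library (adjusted p up to 0.107) and under median-of-ratios scaling. ARRDC2, an arrestin-domain gene, was at 24.5 and 21.9 TPM at 3 h against 8.49 and 9.73 TPM untreated, a rise of 1.26 (adjusted p = 0.00594) that was lost without 3 h replicate 1, 3 h replicate 2 or untreated replicate 1 (adjusted p up to 0.129). HES1, a repressor acting downstream of Notch, was at 127 and 117 TPM at 3 h against 72.7 and 76.0 TPM untreated, a rise of 0.71 that was lost without any of 10 of the 18 libraries (adjusted p up to 0.377 in limma). The HES1 call was also lost under median-of-ratios scaling, under quantile normalization and with weights per library. DDIT4, ARRDC2 and HES1 were the genes called higher in all 3 genotypes. The survival gene mcl1b rose by 0.79 to 113 and 88.0 TPM at 3 h, against 54.4 and 60.7 TPM untreated. Its call was lost under median-of-ratios scaling and quantile normalization. cry5 rose by 1.23 to 6.43 and 7.29 TPM, against 1.76 and 3.06 TPM untreated. For mcl1b the call needed 14 of the 18 libraries (adjusted p up to 0.536 without 1 of them), and for cry5 it needed 13 (adjusted p up to 0.292 in limma). ppp1r15a, a phosphatase subunit of the integrated stress response that restores translation, was at 48.7 and 36.4 TPM at 3 h against 10.8 and 14.4 TPM untreated, a rise of 1.68 that was lost when 1 of 14 libraries was left out (adjusted p up to 0.417). The matrix protease gene MMP9 was at 11.6 and 14.3 TPM at 3 h against 2.23 and 4.92 TPM untreated, a rise of 1.66 that was lost when 1 of 7 libraries was left out (adjusted p up to 0.274 in limma).

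Most skeletal muscle transcripts had lower values at 3 h in the p53 mutant, and few of them passed the test. The tested members of a skeletal muscle list, 24 genes, had a median change of -0.76, and 1 was called lower (0.226% of all genes were). Without overlap, 19 of them were lower (9.96% of all genes were) and 2 were higher (36.4% of all genes were). Their summed level was 19500 and 27100 TPM at 3 h, against 45100 and 40600 TPM in untreated p53 mutants. In wild type embryos the list's median was 0.22 and in triple mutants 0.20, and no member differed in response between the genotypes by a called amount. The called member pvalb1 (ENSDARG00000037789), the calcium buffer parvalbumin, was at 1056 and 1291 TPM at 3 h against 3164 and 2284 TPM untreated. This fall was called (SE 0.194, adjusted p = 0.0199 in limma), and the call was lost without 3 h replicate 1, 3 h replicate 2 or untreated replicate 1 (adjusted p up to 0.32) and under median-of-ratios scaling. The tropomyosin gene tpma was at 4865 and 6132 TPM at 3 h against 12536 and 11244 TPM untreated, and its change of -1.12 was not called (adjusted p = 0.153). Among called genes outside the list were the troponin genes tnnt2d, at 95.8 and 101 TPM at 3 h against 210 and 190 TPM untreated, and TNNI2 (ENSDARG00000029069), at 1186 and 1480 TPM at 3 h against 2812 and 2232 TPM untreated. tnnt2d fell by 1.01 and TNNI2 by 0.92, and both calls were lost without 3 h replicate 1 or untreated replicate 1 (adjusted p up to 0.0829 for tnnt2d and 0.35 for TNNI2 in limma). The TNNI2 call was also lost under median-of-ratios scaling. The median of the muscle list was -0.46 when 3 h replicate 1 was left out and -1.04 when replicate 2 was.

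Other tissue markers moved less or followed single libraries. The lens list, 17 tested genes, had no call (3 at an unadjusted p under 0.05 in limma, all lower) and a median of -0.55. That median was -0.14 without untreated replicate 1 and -0.90 without untreated replicate 2. The lists for heart, epidermis, hatching gland, neural progenitor, neuron, blood, endothelium, neural crest and pigment, notochord and cartilage, and somites had no called member, with medians between -0.22 (notochord and cartilage) and 0.47 (hatching gland). In the hatching gland list, 6 tested genes, 4 had an unadjusted p under 0.05 in limma, all higher, and 5 were higher without overlap (36.4% of all genes were). Its median was 0.33 without untreated replicate 1 and 0.66 without untreated replicate 2. Each of the 12 tissue lists had at least 6 tested members, with 1 TPM or more in 2 or more of the 18 libraries. Those libraries need not be of the p53 mutant, and the presence of each tissue was not tested. The 13 transcripts of the mitochondrial genome had a median of 0.67 and no call, with none at an unadjusted p under 0.05, and the median was -0.25 without untreated replicate 1 and 1.56 without replicate 2. The immediate early list, 37 tested genes, had a median of -0.06 that was -0.52 without untreated replicate 1 and 0.35 without replicate 2, so that its direction followed the choice of untreated library.

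The remaining lists held 0 or 1 call each. The lists of cell death (37 tested), circadian and light (34) and FoxO and energy stress (32) had 1 member called higher each (0.231% of all genes were). These were mcl1b, cry5 and DDIT4. Of 24 tested interferon and inflammation genes, 1 was called lower (0.226% of all genes were), the chemokine gene cxcl8b.1, at 0.62 and 0.54 TPM at 3 h against 2.90 and 3.59 TPM in untreated p53 mutants (adjusted p up to 0.32 in limma when 1 of 14 libraries was left out). Of 82 cytosolic ribosomal protein genes, 1 was called higher (0.231% of all genes were), RPL7L1, a ribosome assembly factor, at 156 and 152 TPM at 3 h against 90.02 and 105 TPM untreated (adjusted p up to 0.436 when 1 of 12 libraries was left out). The RPL7L1 call was also lost under median-of-ratios scaling and quantile normalization. Of 79 nuclear genes of oxidative phosphorylation none was called in limma, 14 had an unadjusted p under 0.05, all lower, and the median was -0.14. No member was called in limma among 26 cell cycle inhibitors (4 at an unadjusted p under 0.05), 35 genes of the integrated stress and unfolded protein responses (2; the called ppp1r15a was not in this list), 34 antioxidant genes (2), 23 cholesterol synthesis genes (7), 40 proteasome genes (0) and 8 chaperonin genes (1). Of all 18575 genes, 1866 had an unadjusted p under 0.05 in limma. The medians of these lists ran between 0.03 for the proteasome and 0.35 for cholesterol synthesis.

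**Figure D3:**
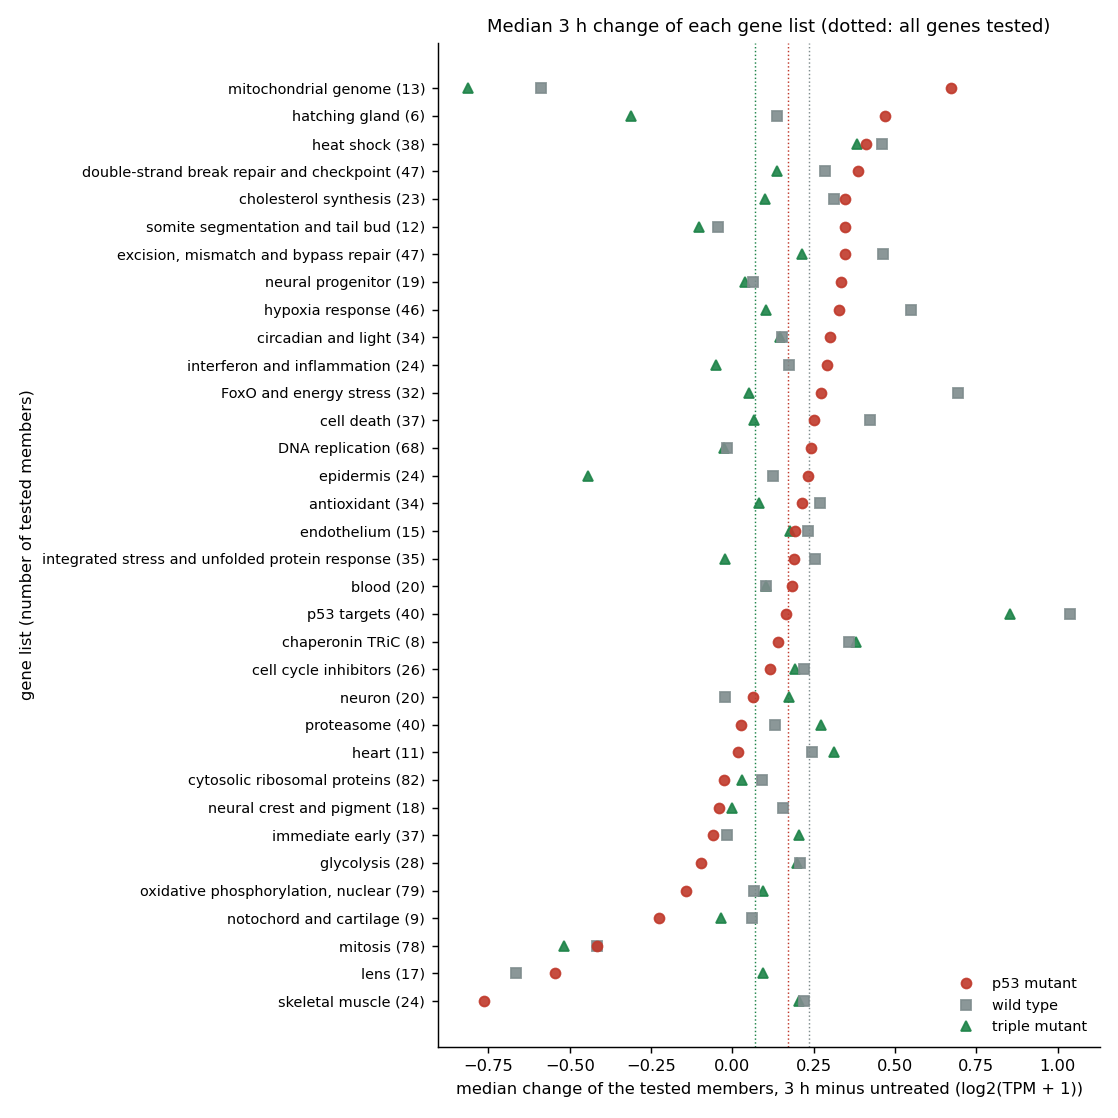
Median change at 3 h (log2(TPM + 1), 3 h minus untreated) of the tested members of 34 gene lists, with circles for the p53 mutant, squares for the wild type, triangles for the triple mutant and dotted lines for the median of all tested genes in each genotype. The p53 target list lies at 0.16 in the p53 mutant and at 1.04 and 0.85 in the others, the mitosis list is below 0 in all 3, and the skeletal muscle list is at -0.76 in the p53 mutant and above 0 in the others.

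Genes called in the p53 mutant were often also called in the wild type, which had more calls in all, and fewer of them were called in the triple mutant. Of the 43 genes that rose, 25 (58.1%) were also called higher in the wild type, where 3.11% of all genes were, and they were 4.33% of the 578 genes called higher there. In the triple mutant 3 (6.98%) were also called higher, against 0.598% of all genes, and they were 2.7% of the 111 called there. Of the 42 genes that fell, 24 (57.1%) were also called lower in the wild type, where 0.668% of all genes were, or 19.4% of the 124 called there. In the triple mutant 14 (33.3%) were, against 0.151% of all genes, or 50% of the 28 called lower there. None of the 85 was called in the opposite direction in either genotype. The median change of the genes that rose was 1.33 in p53 mutant, 0.96 in wild type and 0.20 in triple mutant embryos, and of those that fell -1.41, -0.99 and -0.16. The p53 mutant values were not corrected for the choice of genes by their change there. The wild type comparison has the same difference in 5.8S RNA between 3 h and untreated libraries as the p53 mutant comparison, the triple mutant comparison does not, and the part of this in the shared calls was not tested.

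**Figure D4:**
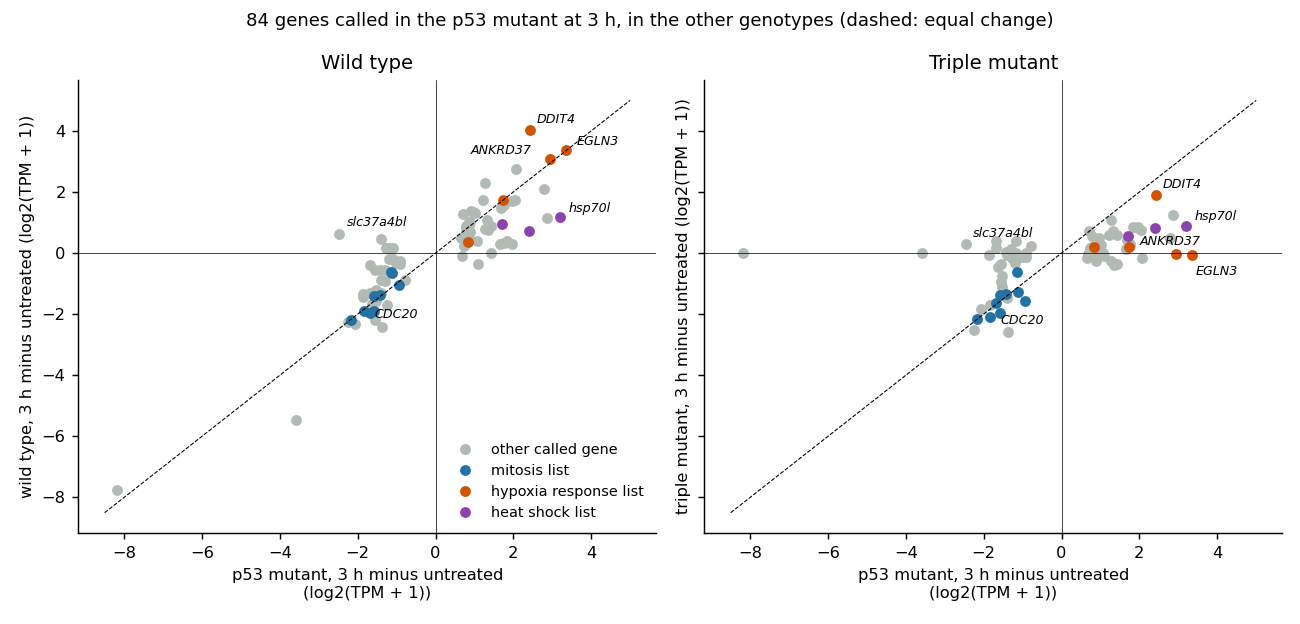
Change at 3 h (log2(TPM + 1), 3 h minus untreated) of 84 of the 85 genes called in the p53 mutant, plotted on the horizontal axis against the change of the same genes on the vertical axes, in the wild type (left) and the triple mutant (right), with colours for mitosis, hypoxia response and heat shock genes. Of the called mitosis genes, cdca3 and CDC20 lie near the dashed line of equal change in both panels. In the triple mutant aurka lies below that line and CCNB1 above it. EGLN3 and ANKRD37 lie near the dashed line in the wild type and near 0 in the triple mutant.

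The difference between responses was called for 71 genes between the p53 mutant and the wild type (0.382%), 7 higher (0.0377%) and 64 lower in the p53 mutant, and for 52 genes between the p53 mutant and the triple mutant (0.28%), 8 higher (0.0431%) and 44 lower. The first count was 41 to 47 when either 3 h library of these genotypes or untreated p53 mutant replicate 2 was left out. The second was 30 to 34 when either p53 mutant 3 h library, either untreated triple mutant library or triple mutant 3 h replicate 2 was left out, and 102 for either p53 mutant 1 h library. Of the 85 genes called in the p53 mutant, 5 were among the first and 12 among the second. The largest fall with a symbol and a measurable 3 h level was that of slc37a4bl (ENSDARG00000093531), which resembles genes of the glucose-6-phosphate transporter family by its name. It was at 1.45 and 1.86 TPM at 3 h against 13.6 and 13.7 TPM in untreated p53 mutants, and fell by 2.47 (SE 0.282, adjusted p = 0.00123 in limma). In the wild type it was at 14.4 and 16.0 TPM at 3 h against 6.29 and 13.8 TPM untreated, and in the triple mutant at 5.82 and 8.38 TPM at 3 h against 5.77 and 5.35 TPM untreated. The p53 mutant response differed from that of the wild type by -3.11 (SE 0.398, adjusted p = 0.00334) and from that of the triple mutant by -2.75 (SE 0.398, adjusted p = 0.00937 in limma).

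tma7 (ENSDARG00000071670), a gene linked to ribosomes in yeast, was at 27.8 and 26.8 TPM at 3 h against 113 and 90.6 TPM in untreated p53 mutants. It fell by 1.85 (SE 0.195, adjusted p = 0.000759 in limma), fell also in the wild type, and was at 190 and 207 TPM in the triple mutant at 3 h against 211 and 207 TPM untreated. ARG2, a mitochondrial arginase, was at 1.17 and 1.24 TPM at 3 h against 4.01 and 4.69 TPM in untreated p53 mutants, a fall that differed from the wild type response by -1.43 (SE 0.249, adjusted p = 0.0298). The fall lost its call without either 3 h library (adjusted p up to 0.107 in limma). The low gene fndc7rs4 (ENSDARG00000092813) was at 1.95 and 2.01 TPM at 3 h against 0.38 and 0.40 TPM untreated. This rise was called (SE 0.134, adjusted p = 0.00215 in limma), and the response exceeded that of the wild type by 1.44 (SE 0.19, adjusted p = 0.00387) and that of the triple mutant by 1.21 (SE 0.19, adjusted p = 0.0178 in limma).

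A few calls involve genes listed at 0 in a whole group. ENSDARG00000094712, which has no symbol, and si:dkeyp-21h4.3 were listed at 0 in both 3 h libraries, against 307 and 274 TPM and 11.4 and 10.4 TPM in the untreated p53 mutants. Both were among 9 tested genes that were at 0 in all 12 libraries without 5.8S RNA and at 1 TPM or more in all 6 libraries with it. The others were 4 copies of the small nuclear RNA U1, 2 of 5.8S RNA and si:dkeyp-3b12.15. By the way the 9 genes were picked, these 2 calls follow the presence of 5.8S RNA in the libraries. They need not follow its amount, which was 631 and 13.6 TPM in the 2 untreated p53 mutant libraries. Library content and treatment cannot be told apart for these genes in the p53 mutant at 3 h. At 1 h, after irradiation, ENSDARG00000094712 was at 185 and 99.98 TPM in p53 mutant libraries that held 5.8S RNA. The other 83 calls were not of this group. si:ch211-229n1.7 was listed at 0 in both untreated p53 mutant libraries and was at 1.35 and 2.09 TPM at 3 h and below 1 TPM in every other library, so that it was tested only through the 3 h libraries.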

How the data were processed

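RNA of whole embryos was measured by poly(A) RNA-seq in 18 libraries of 9 groups. TPM values per gene, 32057 genes in all, were deposited by the authors with a table for each genotype. Tools named in the submitters' processing notes, with no role or order, are R 4.3.3, RSEM 1.3.3, DESeq2 1.42.1, STAR 2.7.3a and HTSeq 0.12.3, and the build is GRCz11. Depth is unknown, because TPM carries no counts, and no interval for counting error was computed. A gene symbol was matched for 28988 genes.

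A gene was kept if 2 or more libraries had 1 TPM or more (18575 genes, 17908 with a symbol). limma 3.58.1 in R 4.3.3 was fitted to log2(TPM + 1) over all 9 groups with 9 residual and 2.87 prior degrees of freedom and a mean trend, two-sided, with Benjamini-Hochberg adjustment over all genes. Differences between responses were interaction contrasts in the same fit. The fit was tested on simulated data with independent normal values and no shift of whole libraries. That test cannot show how the fit behaves under library differences such as those described above. Genes named are the 15 largest called rises and falls without overlap, the called members of each list (with those of smallest p up to 3), the genes of the title and genotypes, and the 8 called genes with the smallest p for a difference from each other genotype. Called genes named outside this rule were chosen after their values were seen, and 2 genes that the rule names are not reported here. Members and lists were chosen with earlier results of these data known. Same-numbered replicates were not treated as paired, since the labels give no shared source and deviations did not correlate throughout (0.0402 for 3 h with untreated p53 mutants, 0.789 for 1 h with untreated). Alternatives covered the pseudocount, filter, scaling, mitochondrial transcripts, samples sharing the spread, weights, trend, replicate block and each library left out.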

Additional observations from a re-analysis of the deposited data

Results flagged for a closer look

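Each value here is a difference between the 3 h response of the p53 mutant and that of another genotype, called by limma's test of the difference itself (log2(TPM + 1) scale, 2 libraries a group).

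Against the wild type, the p53 mutant response differed by -6.62 for cdkn1a, -5.19 for bbc3, -4.05 for mdm2 and -1.93 for CCNG1, and by -3.11 for slc37a4bl, -1.59 for DDIT4 and -1.43 for ARG2. It differed by 1.43 for si:ch211-229n1.7, 1.44 for fndc7rs4 and 1.67 for epcam, an adhesion gene of epithelia. si:ch211-229n1.7 was listed at 0 in every wild type library, so its value depends on the pseudocount, and it was tested only because both p53 mutant 3 h libraries had 1 TPM or more, so its differences from both genotypes are descriptions. epcam was at 471 and 458 TPM at 3 h against 309 and 317 TPM in untreated p53 mutants, a change that was not called, and at 62.2 and 73.6 TPM at 3 h against 154 and 139 TPM in the untreated wild type.

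Against the triple mutant, the p53 mutant response differed by -4.98 for cdkn1a, -4.04 for bbc3, -2.75 for slc37a4bl and -1.78 for tma7. It differed by 3.42 for EGLN3, 2.98 for ANKRD37, 2.23 for si:dkey-85k7.7, 1.80 for si:ch211-229n1.7, 1.52 for vhl, 1.51 for clk4a and 1.21 for fndc7rs4. The values of -8.19 for ENSDARG00000094712 and -3.57 for si:dkeyp-21h4.3 depend on the pseudocount, since both were listed at 0 in all 3 h libraries concerned and in the untreated triple mutant. The triple mutant carries mutations of bbc3 (puma) and cdkn1a (p21) itself, and the TPM of these genes there is that of the mutant loci.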

How the results depend on the processing

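The count of 85 genes at 3 h in the p53 mutant was 162 under median-of-ratios scaling and 179 under quantile normalization. It was 1 in the fit to the p53 mutant alone, namely ENSDARG00000094712, and 30 to 232 with 1 library left out. Library content and treatment cannot be told apart for that gene. The 71 genes that differed from the wild type response became 21 in a fit of those 2 tables, 47 with weights per library, and 41 to 100 with 1 library left out. The 52 that differed from the triple mutant response became 82 with a pseudocount of 5 TPM, 88 under median-of-ratios scaling, 106 under quantile normalization, 185 with weights, and 30 to 102 with 1 library left out. The 105 between 3 h and 1 h became 176 and 175 under these scalings, 0 in the fit to the p53 mutant alone (784 at an unadjusted p under 0.05 in limma), 2 with weights, and 19 to 10108 with 1 library left out. Splits by 5.8S RNA were chosen after seeing the data: leaving out the 3 libraries over 100 TPM gave 1499, 1425, 711 and 3081 genes in these 4 comparisons, and leaving out the 3 others above 0 gave 8485, 369, 4344 and 13506. Each split left 1 library, with no residual, in the 3 groups concerned, so these counts do not measure how stable the 85 calls are. The cause of the differences between the counts was not tested.

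With the replicate number as a block within genotype, the 3 h count was 65 (55 shared), and the other counts were 61, 51 and 107. Nothing in the labels ties a number to a shared source, and the deviations of same-numbered libraries varied (r = 0.0402 for 3 h with untreated p53 mutants, 0.789 for 1 h with untreated, 0.0294 for 3 h with 1 h, and for 3 h with untreated -0.339 in wild type and -0.0998 in triple mutant embryos). With the wild type numbers crossed, chosen after seeing the data, the counts were 79, 70, 51 and 133.

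For the named genes, 16 pairs of gene and setting had a change of the opposite sign, none of them for a called gene. Outside the 5.8S splits, CCT5 turned to -0.026 and CCNG1 to -0.16 under median-of-ratios scaling. foxo3b turned to -0.0065 there, to -0.046 under quantile normalization and to -0.19 without untreated replicate 1. pmaip1 turned to -0.0011 under quantile normalization and to -0.064 without untreated replicate 1, and MT-CO1 to -0.032 without untreated replicate 1. ihhb turned to 0.14 and FBXW7 to 0.23 without untreated replicate 2, and FBXW7 to 0.016 without 3 h replicate 1. With 1 library left out the other ends of their ranges were 0.42 for pmaip1, 0.52 for foxo3b, 1.81 for MT-CO1, -0.68 for ihhb and -0.28 for FBXW7. The 5.8S splits gave the same values as leaving out the untreated library concerned. Depth is unknown, and with 2 libraries a group the smallest change that limma called was 0.66.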
